A study of Mus musculus with 6 samples.

Results

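The library described here was made from bone-marrow-derived macrophages treated for 24 h with IL4 and with no further compound. It is 1 of 6 RNA sequencing libraries of the series and was taken by its label, as the library with IL4 and no compound. The cells came from bone marrow of C57BL/6 mice, grown for 5 days in DMEM with 10% FBS and M-CSF at 10 ng/ml, under which marrow progenitors become macrophages. All 6 cultures received IL4; the other 5 also received Fatostatin, Betulin, 25-HC, PF429424 or 1,10-Phen. The labels used here give neither the doses nor the age and sex of the mice, and do not say whether marrow was pooled. By its title, the series concerns SREBP2 in alternatively activated macrophages and in allergic inflammation of the airways. Each treatment has 1 library, and none was made without IL4. The levels below therefore describe a transcriptome under IL4 and do not separate what IL4 induced from what M-CSF-grown macrophages make without it.

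Of 16775 genes listed in the table, 15099 had a count above 0 and 10589 (63.1%) had at least 50 rounded counts. Counts of list members at this minimum, throughout the text, are to be read beside that share. These 10589 genes were ranked by FPKM, the number of fragments scaled to transcript length and to the fragments mapped in the library, which allows levels of genes of different length to be compared. Just outside the minimum lay Thrb, Sorbs3 and Cd38, with 49.17, 49.25 and 49.33 estimated counts, and just inside lay Zfp558, Uggt2 and Amotl1, with 49.52, 49.62 and 49.65.

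IL4 binds a receptor made of IL4Ra and a partner chain and acts through JAK kinases on STAT6, which enters the nucleus and switches on the genes of alternative activation. Macrophages in that state take up debris and lipid, break down arginine through arginase, and secrete chitinase-like and resistin-like proteins, matrix enzymes and growth factors. They accompany type 2 immunity in the lung. SREBP2, which the series title names, switches on the genes of cholesterol synthesis and uptake when membranes are low in sterol.

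The promoters of 3 alternative activation genes with the STAT6 pattern, and of Chil3 as a marker without the match, are shown first because STAT6 is the factor through which IL4 acts. STAT6 is known to prefer the letters TTC and GAA separated by 4 bases, a pattern that reads the same on both strands. Each line gives bases up to the transcript start on the strand of the gene, 5′ to 3′, from RefSeq on GRCm38.p6, with the STAT6 pattern in capitals. The last line shows Hmgcs1, the cholesterol synthesis gene whose promoter held the sterol element TCACNCCAC, here in capitals.
Retnla, chr16:48842359-48842608, plus strand: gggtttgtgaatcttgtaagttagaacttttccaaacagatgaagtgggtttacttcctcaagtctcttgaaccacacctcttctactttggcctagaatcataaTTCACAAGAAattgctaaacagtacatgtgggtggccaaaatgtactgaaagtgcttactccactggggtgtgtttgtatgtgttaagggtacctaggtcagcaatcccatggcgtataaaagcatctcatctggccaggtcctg
Clec7a, chr6:129472786-129472935, minus strand: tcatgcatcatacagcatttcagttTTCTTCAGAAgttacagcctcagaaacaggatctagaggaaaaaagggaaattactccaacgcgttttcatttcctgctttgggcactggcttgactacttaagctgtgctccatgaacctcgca
Pdcd1lg2, chr19:29410769-29410918, plus strand: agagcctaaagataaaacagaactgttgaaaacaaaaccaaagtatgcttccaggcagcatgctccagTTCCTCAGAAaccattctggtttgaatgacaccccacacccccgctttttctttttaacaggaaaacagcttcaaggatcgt
Chil3, chr3:106167565-106167814, minus strand: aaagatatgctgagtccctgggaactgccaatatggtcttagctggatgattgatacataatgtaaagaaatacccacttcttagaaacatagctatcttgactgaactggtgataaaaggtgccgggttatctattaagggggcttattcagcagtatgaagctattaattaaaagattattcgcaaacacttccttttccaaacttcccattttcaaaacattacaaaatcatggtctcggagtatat
Hmgcs1, chr13:119690201-119690350, plus strand: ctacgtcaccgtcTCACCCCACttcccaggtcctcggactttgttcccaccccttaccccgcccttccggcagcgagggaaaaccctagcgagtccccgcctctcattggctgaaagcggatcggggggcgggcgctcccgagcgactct

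The pattern was searched in 250 bases before and 50 after each transcript start. It stood in 10 of 37 promoters of the alternative activation list (27.0%) and in 2284 of 32851 promoters of all genes in the RefSeq table (6.95%). Promoters of the same gene can overlap, and the sites of Clec7a and Il1rn were each counted more than once. The promoters with a match belonged to 8 of the 28 list genes that had one in the table: Retnla, Clec7a, Pdcd1lg2, Itgax, Il1rn, Cd36, Ccl17 and Fcer2a. In Retnla the match began 145 bases before the start. The levels of these 8 genes reached from 908 FPKM for Cd36 to 0.21 FPKM for Fcer2a. Of the 3 marker genes Retnla, Chil3 and Mrc1 that had a promoter in the table, 1 held the pattern. A match describes letters only, and its absence from this window says nothing of the factor.

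The library held 20181425 rounded counts, and the 6 libraries held up to 21169705. A count of 3, taken as the most that a 0 allows, corresponds to 0.149 CPM, a count scaled to library size. Protein-coding genes, which were 16475 of the 16775 genes listed, took 99.7% of the counts. FPKM of the ranked genes had a median of 12.9, with 5.44 at the 25th percentile, 29.6 at the 75th and 589 at the 99th. Most genes lay in 2 bands: 4147 genes between 1 and 10 FPKM held 7.74% of the counts, and 5441 genes between 10 and 100 FPKM held 46.4%. At the top, 38 genes at 1000 FPKM or more made up 0.359% of the ranked genes and held 14.7% of the counts. The most abundant gene by count took 1.69%, the first 10 took 9.60% and the first 100 took 24.2% (exact 95% Clopper-Pearson interval 24.2 to 24.3%). A set of 721 genes held 50% of all counts. Intervals given here and below cover counting error only, since there is no second IL4 library from which a spread between cultures could be had.

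**Figure D1:**
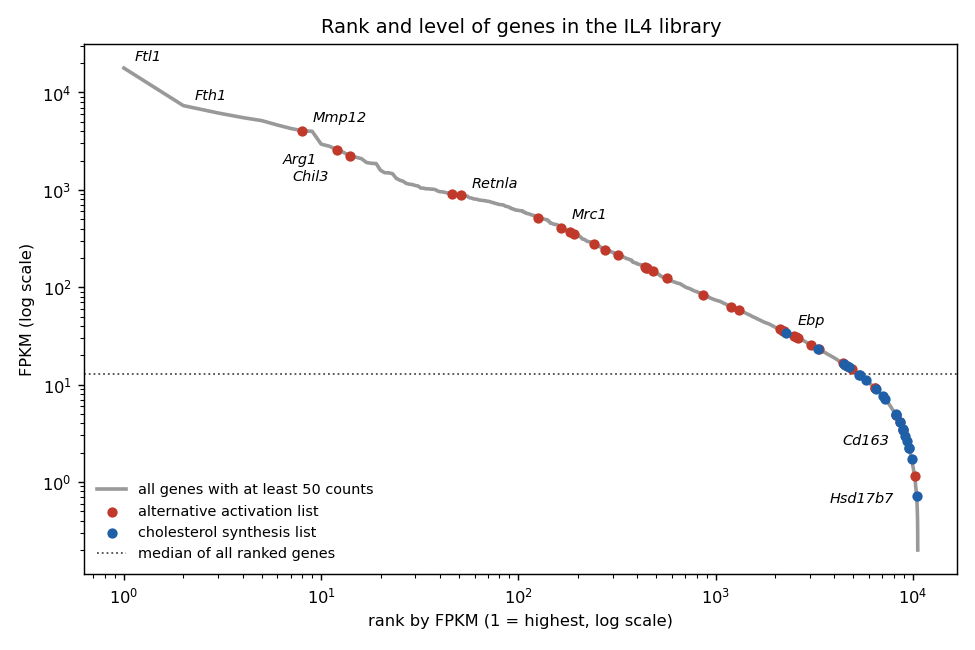
Level of each gene with at least 50 counts in the IL4 library (FPKM, log scale) against its rank (log scale); red points are members of the alternative activation list, blue points members of the cholesterol synthesis list, and the dotted line is the median of 12.9 FPKM. Red points reach from rank 8 (Mmp12) to rank 10215 (Olr1), while no blue point lies above rank 2285 (Ebp).

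Markers of alternative activation stood near the top of the library. Arg1, the arginase that splits arginine into ornithine and urea (chr10:24915207-24927470), had 76714 counts and 2594 FPKM (95% Poisson interval 2575 to 2612), rank 12. Chil3, a secreted chitinase-like protein also known as Ym1 (chr3:106147554-106167564), had 68832 counts and 2231 FPKM, rank 14. Retnla, the resistin-like protein also known as Fizz1 (chr16:48842609-48844461), had 10103 counts and 876 FPKM (859 to 894), rank 51 with a counting range of 47 to 56. Mrc1, the mannose receptor CD206 (chr2:14229414-14332023), had 44467 counts and 410 FPKM, rank 164. The order of the last pair depends on transcript length: by count alone Mrc1 was at rank 29 and Retnla at rank 260. All 4 markers lay within the highest 2% of ranked genes by FPKM, the lowest of them, Mrc1, at the 98.5th percentile.

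The wider alternative activation list had 42 genes, of which 41 were in the table and 37 reached 50 counts. The median of these 37 was 62.3 FPKM, at the 88.7th percentile of ranked genes (order-statistic 95% interval over members, 75.9 to 95.9), and 31 of them were above the all-gene median. Together the list took 2.99% of all counts. Mmp12, the macrophage elastase, was its most abundant member at 4048 FPKM and rank 8. Cd36, a receptor for oxidised lipoprotein and fatty acids, followed Arg1 and Chil3 at 908 FPKM. Clec7a, the beta-glucan receptor Dectin-1, had 516 FPKM, Rnase2a 373 and Itgax, the integrin CD11c, 280. A middle group held the cross-linking enzyme Tgm2 at 242 FPKM, the galactose lectin Mgl2 at 216, fibronectin (Fn1) at 157, the growth factor Igf1 at 147 and the transferrin receptor Tfrc at 123.

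Other genes often used to mark the same state lay lower. Pdcd1lg2, which encodes the inhibitory ligand PD-L2, had 15.5 FPKM, Ccl24 16.6 and Ccl22 35.3, all above the all-gene median of 12.9. Cd163, the haemoglobin scavenger receptor, had 3.41 FPKM from 290 counts, and Olr1 had 1.14. Below the minimum of 50 counts lay Alox15 with 12 counts, Fcer2a with 11, Cd209a with 10 and Ccl17 with 9. The list thus ranged from 4 genes under the minimum to 5 among the 100 most abundant genes by FPKM (Mmp12, Arg1, Chil3, Cd36 and Retnla). The close relatives of the markers were far lower within this library. Arg1 exceeded Arg2, the mitochondrial arginase, 357-fold by FPKM (312 to 412), and Retnla exceeded Retnlg 789-fold (461 to 1483). Chil3 exceeded Chil4 539-fold (452 to 648), although the similar sequences of that pair make the split of reads between them uncertain.

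Every gene of the IL4 and M-CSF receptor signalling list was present: 25 of 25 reached 50 counts, with a median of 25.3 FPKM. Il4ra, the IL4-binding chain, had 24.6 FPKM, and Il2rg, the common gamma chain that pairs with it in the type I receptor, had 46.1; by count, not scaled to length, the order turned, with 2018 for Il4ra and 1521 for Il2rg. Il13ra1, the partner chain of the type II receptor, had 3.41 FPKM, so that Il4ra exceeded it 7.21-fold (6.33 to 8.23). Among the kinases, Jak1 had 68.3 FPKM, Jak2 29.1, Tyk2 24.9 and Jak3 6.55. Stat6 had 73.2 FPKM, 3.26-fold that of Stat3 (3.10 to 3.43). The feedback inhibitors Cish and Socs1, which cytokine signalling is known to induce, had 29.98 and 25.3 FPKM, whereas Socs2 had 9.14 and Socs3 1.5. Receptors of the growth factors stood higher than that of IL4. Csf1r, the M-CSF receptor, had 563 FPKM, the shared beta chain Csf2rb 279, and the adaptor Tyrobp 1026.

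All 16 transcription factors linked to the IL4 response reached 50 counts, with a median of 21.6 FPKM. Cebpb had 164 FPKM, Egr2 87.4, Bhlhe40 82.3 and Pparg, the lipid-sensing nuclear receptor, 60.7. Pparg exceeded Ppard 4.39-fold (4.06 to 4.75). Irf4, a factor of alternative activation, had 19.0 FPKM, and the histone demethylase Kdm6b and the coactivator Ppargc1b had 4.84 and 3.95. The factors of the macrophage lineage had a higher median of 72.6 FPKM over 18 of 18 genes. They were led by Spi1 (PU.1), the master factor of myeloid cells, at 277 FPKM. The order-statistic intervals over members of the lineage and IL4 lists overlapped (37.4 to 140 and 7.42 to 73.2 FPKM). Cebpb is on both lists. Cebpa at 169 and Cebpb at 164 FPKM could not be ordered by FPKM, since the interval of their ratio, 0.933 to 1.00, reached 1; by count, not scaled to length, Cebpb had 4980 and Cebpa 9045, a ratio of 0.551.

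Marker sets were used to check that the library is of macrophages. All 14 macrophage markers reached 50 counts and summed to 8936 FPKM, among them Lyz2 at 4632, Cd68 at 1499, Csf1r at 563, Adgre1 (F4/80) at 311 and Itgam (CD11b) at 294 FPKM. Siglec1, Mertk and Fcgr1 were lower at 30.6, 21.3 and 12.4 FPKM, and the fractalkine receptor Cx3cr1 had 2.60. Markers of classical activation, the state driven by interferon-gamma and bacterial products, were nearly absent. Only Tnf, with 181 counts, and Ptgs2, with 61, of 11 such genes reached the minimum, and the set summed to 9.48 FPKM. Nos2, the inducible nitric oxide synthase that competes with Arg1 for arginine, had 4 counts. Il12b and Il6 had 2 counts each, Cxcl10 3 and Il1b 25.

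Genes of other marrow cells gave a mixed picture. Of the neutrophil set, 11 of 14 reached 50 counts and the set summed to 549 FPKM; its median was at percentile 62.2 by FPKM and 35.7 by count. Mmp8 had 228 FPKM, S100a9 116, S100a8 62.1 and Ngp 57.7, while Ly6g, which defines mature neutrophils, had 5 counts. The B cell set had 1 of 8 listed genes at the minimum (Cd79b, 66 counts) and the T and NK cell set 1 of 10 (Cd4, 137 counts); Cd3e had 4 counts. Of 11 listed erythroid and megakaryocyte genes only Pf4, a chemokine of platelets that macrophages also make, reached it, at 805 FPKM; Hbb-bs had 0. Of the dendritic cell set, 2 of 11 passed, Itgax and Bst2, while Zbtb46 had 47 counts and Flt3 14. Of the osteoclast set 6 of 8 passed, led by Atp6v0d2 at 350 and Acp5 at 89.5 FPKM, while Ctsk had 14.6 FPKM, Oscar 3 counts and Calcr 1. Of the monocyte set 6 of 9 passed, with Chil3, which monocytes also make, at 2231 FPKM and no other member above 11.1 FPKM (Ccr2). Of 10 listed eosinophil, basophil and mast cell genes 3 passed, the highest being Siglecf at 3.74 FPKM, and of 10 stem and progenitor genes 4 passed, none above 10.5 FPKM (Ly6a). Of 9 listed genes not made in marrow, 1 passed (Syp, 78 counts). Of the stromal and endothelial set 7 of 12 passed, near the 63.1% of all listed genes, and none was above the all-gene median. Col1a2 had 9.84 and Col1a1 8.49 FPKM, and the set summed to 40.3. In RNA of a whole culture, a few cells rich in a transcript and many cells with little of it cannot be told apart.

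**Figure D2:**
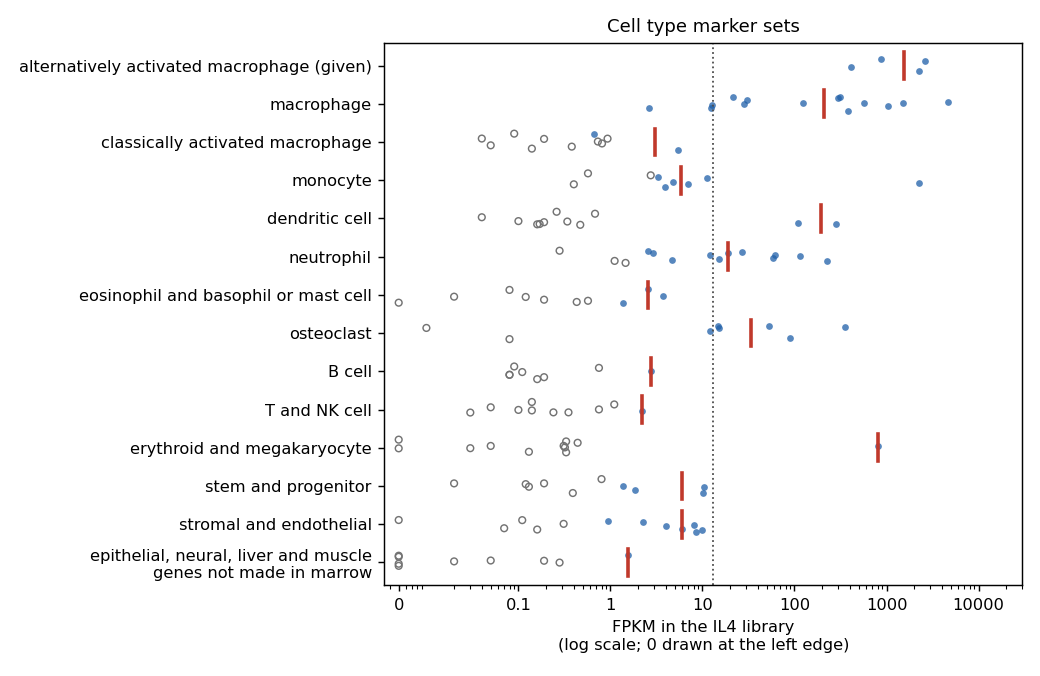
FPKM of every listed member of 14 cell type marker sets in the IL4 library (log scale, 0 drawn at the left edge); filled points have at least 50 counts, open points fewer, red bars are medians of the filled points and the dotted line is the all-gene median of 12.9 FPKM. Macrophage markers reach 4632 FPKM (Lyz2), whereas no classical activation marker exceeds 5.45 FPKM (Tnf), and the bar of the erythroid and megakaryocyte set rests on Pf4 alone.

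The summit of the library belonged to ferritin and the lysosome. Ftl1 and Fth1, the light and heavy chains of the iron store ferritin, held ranks 1 and 2 with 17808 and 7334 FPKM, a ratio of 2.43 (2.41 to 2.44). Next came Psap, the precursor of the saposins that help degrade sphingolipids, at 6161 FPKM, and the proteases Ctsb and Ctsd at 5524 and 5139. Ranks 6 to 8 were held by Lyz2, lysozyme, at 4632 FPKM, Lgals3, galectin-3, at 4273 and Mmp12. Of the 30 highest genes 7 were on the lysosomal lists, among them Gpnmb at 2424, Ctss at 2162 and Ctsl at 1466 FPKM. Other genes among the first 20 were Apoe at 2092, Gapdh at 1907 and the antioxidant Prdx1 at 1588 FPKM. Of the 29 pairs of neighbours among the first 30 genes, 21 had separate counting intervals; the order of the other 8 pairs is not resolved. Ferritin, ribosomal protein, lysozyme and H2 genes have near-identical copies or pseudogenes, so their estimated counts depend on how shared reads were assigned.

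Lysosomal genes were high as groups as well. The cathepsin and hydrolase list had 28 of 30 genes at the minimum, a median of 211 FPKM at the 96.9th percentile, and 5.70% of all counts, against 2.99% for the alternative activation list. Legumain (Lgmn) had 780 FPKM, progranulin (Grn) 747 and the acid lipase Lipa 675. At the low end Ctsk had 14.6 FPKM and Ctsf 5.23, and Ctse had 19 counts. All 27 genes of the lysosomal membrane and proton pump were above the all-gene median, with a median of 199 FPKM. The pump subunit Atp6v0c had 1017 FPKM and Lamp1 1003, while Tfe3 and Tfeb, transcription factors that drive lysosomal genes, had 62.8 and 35.5. The late endosomal GTPase Rab7 was the most abundant of 44 Rab genes at the minimum, at 309 FPKM.

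**Figure D3:**
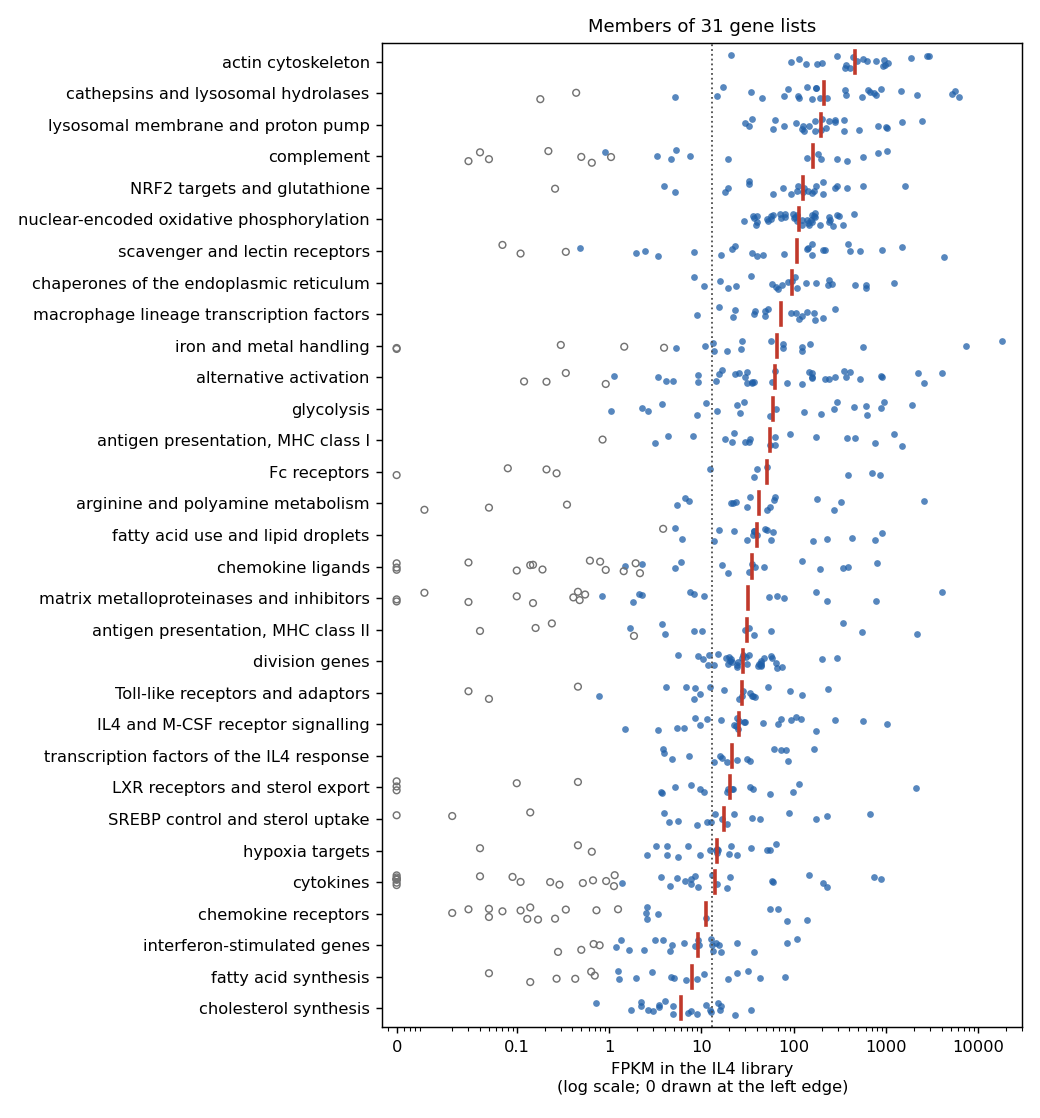
FPKM of every listed member of 31 gene lists in the IL4 library (log scale, 0 drawn at the left edge), lists ordered by the median of members with at least 50 counts (red bars); filled points have at least 50 counts, open points fewer, and the dotted line is the all-gene median of 12.9 FPKM. Actin cytoskeleton (463 FPKM) and lysosomal hydrolases (211 FPKM) have the highest medians, and cholesterol synthesis (6.03 FPKM) the lowest.

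Genes of cholesterol synthesis had the lowest median of the 31 lists among genes with at least 50 counts. All 22 genes reached 50 counts, and their median was 6.03 FPKM, at percentile 27.2 of the ranked genes (13.6 to 49.4), and 5 of 22 were above the all-gene median. In another setting every gene with a count was ranked, and list members without a count were placed at the lowest percentile. That of cholesterol synthesis was then 48.9. Chemokine receptors (26.0), metalloproteinases (35.2), chemokine ligands (36.0), cytokines (37.0) and fatty acid synthesis (42.0) lay lower. The whole cholesterol pathway took 0.0492% of the counts. Hmgcs1, which makes HMG-CoA and whose promoter is printed above, had 15 FPKM (14.1 to 15.9). Of the steps to squalene, Mvk had 4.89 FPKM, Mvd 11.2, Idi1 1.72, Fdps 16.0 and Fdft1, which commits the pathway to sterols, 2.97. Sqle, a control point of the pathway, had 4.98 FPKM and Lss 2.64. The late steps held both ends of the range: Ebp was highest at 34.2 and Dhcr7 next at 23.3 FPKM, while Hsd17b7 had 0.72 from 67 counts. The sterol element TCACNCCAC was searched on both strands. It stood in 1 of 20 promoters of 17 pathway genes, in 0 of 18 promoters of 12 genes of the SREBP control list, and in 1.24% of all promoters.

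**Figure D4:**
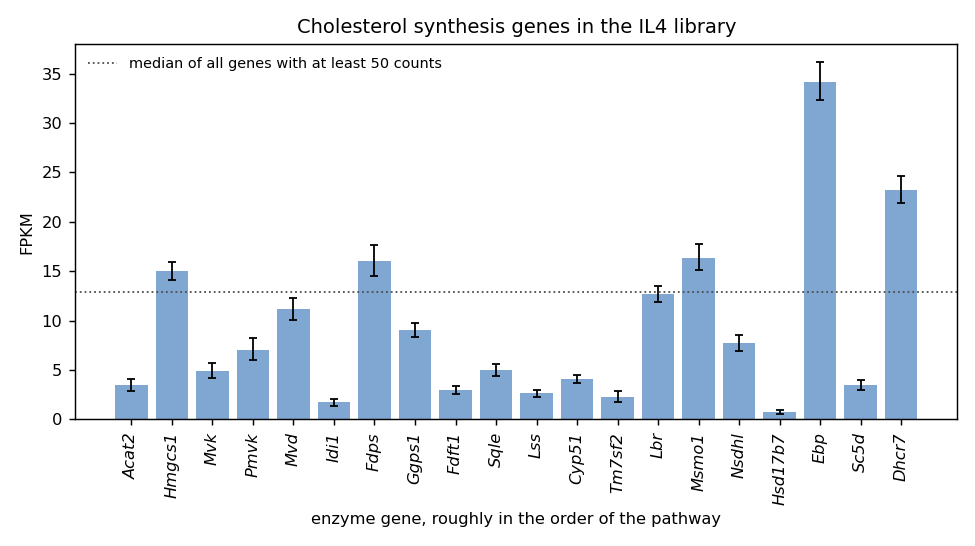
FPKM of 20 of the 22 cholesterol synthesis genes in the IL4 library, arranged roughly in pathway order; error bars are exact 95% Poisson intervals of the counts, and the dotted line is the all-gene median of 12.9 FPKM. Ebp, Dhcr7, Msmo1, Fdps and Hmgcs1 lie above the line and the other 15 genes drawn below it.

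The SREBP regulators named here had from 4.48 FPKM (Scap) to 22.4 FPKM (Mbtps1). Of the list of SREBP control and sterol uptake, 16 of 19 genes reached the minimum. Their median was 17.7 FPKM (order-statistic interval over members, 9.02 to 88.8), and the list also holds genes of uptake and lysosomal release. Srebf2 had 18.8 FPKM and Srebf1 16.7, a ratio of 1.12 (1.05 to 1.21). Scap, which escorts SREBPs to the Golgi, had 4.48 FPKM. The retention proteins Insig1 and Insig2 had 14.1 and 12.7 FPKM, and the interval of their ratio, 1.00 to 1.24, nearly reached 1. The proteases that release SREBPs, Mbtps1 and Mbtps2, had 22.4 and 9.02 FPKM. Lrp1, a large endocytic receptor, had 172 FPKM from 52551 counts. Lysosomal release of cholesterol was well represented, with Lipa at 675, Npc2 at 228 and Npc1 at 88.8 FPKM.

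Genes of sterol storage and export were uneven, with 16 of 21 at the minimum and a median of 20.4 FPKM. Apoe was at rank 16 with 2092 FPKM, whereas the efflux pumps Abcg1 and Abca1 had 19.5 and 3.69. Of the LXR receptors, which sense oxysterols, Nr1h2 had 55.2 FPKM and Nr1h3 22.1, a ratio of 2.50 (2.30 to 2.71). Soat1, which esterifies cholesterol for storage, had 113 FPKM, and Soat2 19 counts. Ch25h, which makes 25-hydroxycholesterol, had 3.70 FPKM from 100 counts.

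Genes of fatty acid use had a higher median than genes of fatty acid synthesis. The order-statistic intervals over members overlapped (22.8 to 163 FPKM for use and 1.94 to 31.7 for synthesis). Of the synthesis list 14 of 20 reached 50 counts, with a median of 7.83 FPKM: Acly had 43.6, Fasn 8.89 and Acaca 4.73 FPKM. Scd1 had 27 counts, and Scd2 exceeded it 18.5-fold by FPKM (12.6 to 28.4). The list of uptake, droplets and oxidation had 19 of 20 genes at the minimum and a median of 39.7 FPKM. Cd36 at 908, lipoprotein lipase (Lpl) at 764, the droplet coat Plin2 at 430 and the carriers Fabp5 at 230 and Fabp4 at 163 FPKM led it. Of beta-oxidation, Hadha had 56.5, Cpt1a 36.2 and Cpt2 13.8 FPKM. Lpl had 62938 counts, which placed it among the first 15 genes by count.

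Energy metabolism was represented by both glycolysis and respiration. All 22 listed glycolytic genes reached 50 counts, with a median of 59.7 FPKM, and Gapdh (1907), Aldoa (959), Pkm (875) and Ldha (626 FPKM) led. Ldha exceeded Ldhb 55.4-fold (49.3 to 62.3), and the glucose transporter Slc2a1 exceeded Slc2a3 61.5-fold (49.4 to 77.7). Of the hexokinases, Hk3 had 130 FPKM, Hk1 26.1 and Hk2 14.7. All 40 nuclear-encoded genes of oxidative phosphorylation were above the all-gene median, from Ndufs1 at 28.8 to Atp5b at 449 FPKM, with a median of 115. By count, which is not scaled to length, the median of that list was at percentile 77.3, against 94.2 by FPKM. The list of hypoxia targets, which also holds regulators such as Hif1a and Vhl, had a median of 14.7 FPKM over 19 of 22 genes. Vegfa had 14.8 and Car9 4.24 FPKM.

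Around Arg1, no other gene of arginine and polyamine metabolism exceeded 322 FPKM, and 16 of 19 listed genes reached the minimum, with a median of 42.5 FPKM including Arg1. Gatm had 177 FPKM, the arginine transporter Slc7a2 62.3 and Slc7a1 6.68. Ornithine leads to polyamines through Odc1, at 23.4 FPKM, and to proline through Oat, at 61.5. The brake on Odc1, antizyme (Oaz1), had 322 FPKM, and Sat1, which breaks polyamines down, 271. Ass1 and Asl, which rebuild arginine from citrulline, had 54.9 and 22.1 FPKM.

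Some redox and iron genes were abundant beyond ferritin. The iron and metal list, which includes Ftl1 and Fth1, had 16 of 21 genes at the minimum. Its median was 66.1 FPKM (order-statistic interval over members, 13.8 to 150). Hmox1 is on this list and on the next. The NRF2 and glutathione list had 24 of 25 genes at the minimum and a median of 127 FPKM, with haem oxygenase (Hmox1) at 568 and Nqo1 at 5.24. Ferroportin (Slc40a1), the iron exporter, had 56.5 FPKM, the lysosomal metal transporter Slc11a1 124, and hepcidin (Hamp) 0 counts. Mt1 had 150 FPKM, and Mt2 had 42 counts.

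Genes of class I antigen presentation had a higher median than those of class II, but the order-statistic intervals over members overlapped (21.5 to 381 and 4.02 to 344 FPKM). The class II list includes Ctss at 2162 FPKM. The class I list had a median of 55.1 FPKM over 19 of 20 genes, and the class II list 31.4 over 12 of 16; by count the percentile of the class II median was 48.6 instead of 76.3. B2m had 1495, H2-D1 766 and H2-K1 381 FPKM, whereas the class II chains H2-Ab1, H2-Aa and H2-Eb1 had 32.9, 29.9 and 10.1, and Ciita, their master regulator, 1.69. The invariant chain Cd74 stood at 344 and the thiol reductase Ifi30 at 547 FPKM. Of the costimulators, Cd80 had 8.25 FPKM and Cd86 3.78, a ratio of Cd86 to Cd80 of 0.458 (0.382 to 0.549).

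Receptors for debris and opsonised particles included abundant and scarce genes. Among members with at least 50 counts, median FPKM was 51.4 over 7 of 11 listed Fc receptor genes, 160 over 14 of 21 complement genes and 110 over 24 of 27 scavenger and lectin receptors. The complement median rests on the members that passed: its percentile of 95.8 became 65.9 with a minimum of 20 counts and 46.9 with every listed gene. Median FPKM was 27.5 over 19 of 22 Toll-like receptor and adaptor genes. Of the Fc receptors, the signalling chain Fcer1g had 863 FPKM, the activating Fcgr3 712 and the inhibitory Fcgr2b 391, whereas Fcgr4 had 37.4 and Fcgr1 12.4. Complement genes split: C1qb, C1qc and C1qa had 1016, 810 and 380 FPKM and the complement receptor 3 chains Itgb2 and Itgam 558 and 294. C3 had 19.3 FPKM, while C4b had 4 counts and Cfb 28. Among scavenger receptors and lectins, Trem2 had 391.6, Stab1 209 and Msr1 159 FPKM, Axl and Mertk 47.0 and 21.3, and Marco and Timd4 3 and 2 counts. Among Toll-like receptors the endosomal Tlr8 and Tlr13 led with 124 and 92.1 FPKM, ahead of Tlr4 at 35.7 and Tlr2 at 8.51, and Tlr5 had 33 counts. In the Ms4a family, 6 of 14 listed genes reached the minimum, with Ms4a6d at 260, Ms4a7 at 207 and Ms4a4a at 197 FPKM.

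Secreted signals ranged from abundant to undetected. Of all listed genes, 63.1% reached 50 counts, the share beside which the following counts are to be read. Of 29 listed chemokine ligands, 15 reached 50 counts: Pf4 had 805, Ccl6 389, Ccl9 345, Ccl2 193 and Ccl7 122 FPKM, while Cxcl1 and Ccl11 had 0 counts. The 15 ligands had a median of 35.3 FPKM. Of the chemokine receptors, 9 of 22 reached the minimum, with a median of 11.1 FPKM; Ccr1 had 67.9 and Cxcr4 55.3 FPKM, and Ccr2 11.1. Of 38 listed cytokines, 20 reached the minimum, with a median of 13.9 FPKM. Spp1, osteopontin, had 884 FPKM, Tgfb1 209, the interleukin-1 antagonist Il1rn 58.0 and Il18 7.65; Il10 had 6 counts, and Csf2, Il33 and Ifng had 0. Of the metalloproteinases and inhibitors, 14 of 24 reached it, with a median of 32.2 FPKM, and Mmp12 was followed by Adam8 at 786, Mmp8 at 228, Mmp13 at 175 and Mmp19 at 79.2 FPKM; Mmp9 had 1.82 and its inhibitor Timp1 10.7. Interferon-stimulated genes had a median of 9.25 FPKM over 22 of 26 genes. The order-statistic interval over members, 3.83 to 15.7 FPKM, included the all-gene median of 12.9. Bst2 had 110, Irf7 13.04, Isg15 3.83 and Rsad2 1.2 FPKM.

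Genes of cell division were present in full. All 35 reached the minimum, with a median of 28.5 FPKM, and 30 were above the all-gene median. Pcna had 294 FPKM, Mki67 64.1, Top2a 58.3, Cdk1 24.5 and Ccnb1 28.5. The list also holds the cell cycle inhibitor Cdkn1a, which had 202 FPKM. Chaperones of the endoplasmic reticulum had a median of 96.7 FPKM, led by Calr at 1226, Hsp90b1 at 613 and Hspa5 at 610. Actin genes had the highest median of the 31 lists, 463 FPKM, with Actb at 2947 and Tmsb4x at 2805. Ribosomal protein genes were taken by symbol, as Rpl, Rps or Rplp followed by a number. They had a median of 508 FPKM over 79 genes. Genes taken by this rule made up 28 of the 100 highest by FPKM, but 2 of the 100 highest by count. The rule leaves out some such genes, among them Rpsa at rank 86 by FPKM and 59 by count. The median effective transcript length was 1.15 kb among the 100 highest genes by FPKM and 2.15 kb among the 100 highest by count.

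Set beside the other 5 libraries, the IL4 library shared most of its most abundant genes. Of its 100 highest genes by FPKM, 90 were also among the 100 highest with Fatostatin, 89 with PF429424, 86 with Betulin, 83 with 25-HC and 75 with 1,10-Phen, and 70 were so in all 6 libraries. None of the 100 lay outside the first 200 in every other library. Retnla was at 876 FPKM and rank 51 with IL4 alone, 569 FPKM and rank 111 with Fatostatin, and 262 FPKM and rank 272 with Betulin. It was at 37.0 FPKM and rank 1874 with 1,10-Phen, 27.7 and 2833 with 25-HC, and 18.5 and 3825 with PF429424. The IL4 library held the highest value of Retnla of the 6. Arg1 was at rank 12 with IL4 alone and between ranks 9 and 30 in the others, and Chil3 at rank 14 and between 5 and 29; both had a higher FPKM with Fatostatin (3610 and 3481) and with 1,10-Phen (5020 and 5727) than with IL4 alone. With PF429424 Chil3 was also higher, at 2881 FPKM, and Arg1 lower, at 1308; with Betulin and 25-HC both were lower. Mrc1 was at rank 164 with IL4 alone, 137 with Fatostatin, 294 with Betulin, 350 with PF429424, 399 with 1,10-Phen and 782 with 25-HC. With 1 library per treatment, these values describe libraries and have no replicate check.

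**Figure D5:**
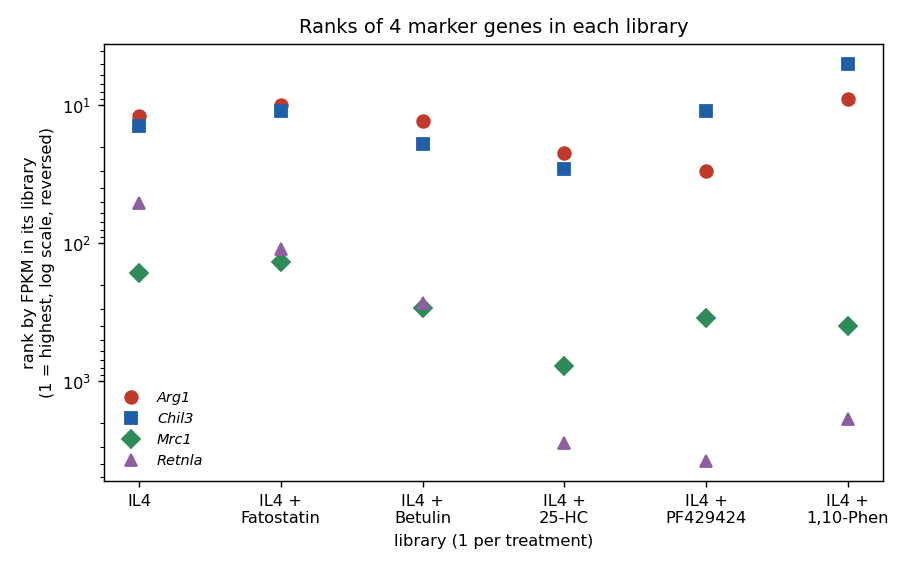
Rank by FPKM (log scale, 1 at the top) of Arg1, Chil3, Mrc1 and Retnla among genes with at least 50 counts in each of the 6 libraries. Arg1 and Chil3 stay within the first 30 genes in every library, whereas Retnla lies at rank 51 with IL4 alone and at rank 3825 with PF429424.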

How the data were processed

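RNA sequencing of macrophage cultures gave 6 libraries, 1 per treatment, each from 1 ug of total RNA. The authors deposited an estimated count (expected count) for each gene, of which 31.8% in the IL4 library differ from a whole number by more than 0.001. Per the file headers they also give an FPKM value, scaled to length and depth. No step is assigned in the submitters' processing notes to the tools listed there (RSEM 1.2.12, HISAT2, Bowtie2 and DESeq2), and strand handling is not given in the labels. Positions came from the RefSeq annotation of GRCm38.p6, matched by Gene ID for 99.3% of genes, and promoters for 78.3%.

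Counts were rounded. Genes with at least 50 counts were ranked by FPKM; of 2 rows with the symbol Plin2 the one with more counts was kept. Intervals are exact 95% Poisson, Clopper-Pearson or conditional binomial intervals, and medians of lists have order-statistic intervals, checked on simulated data. No test was run, because each treatment has 1 library. The PU.1 letters GAGGAAGT stood in none of 7 macrophage marker genes with a promoter and in 3.20% of all promoters. Of the 50 most abundant genes, 41 had a promoter. The letters TATAAA stood within 40 bases before the start in 3 of their 52 promoters (Ppia, Prdx1 and Vim), or 5.77%, and in 2.31% of all promoters. None of these patterns contains another, though GAGGAAGT can overlap the GAA of the STAT6 pattern.

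The library and the lists (31 gene lists, 14 marker sets, 14 families and 29 pairs) were picked for description with earlier results of these data known. Named genes are the 30 highest by FPKM and 15 by count, the 4 markers, members of the lists on alternative activation, IL4 signalling and factors, and sterol metabolism, the 6 highest, 3 lowest and zero-count members of other lists, both genes of each pair, and genes next to the minimum; the text leaves some out, and other members it names were chosen after their values were seen. Genes not listed in the tables and mitochondrial genes were not analysed here, and single values of a few list members are not reported here. Python 3.11.15 with numpy 2.4.6, pandas 2.3.3, SciPy 1.17.1 and matplotlib 3.10.9 was used.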

Additional observations from a re-analysis of the deposited data

How the results depend on the processing

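The 100 most abundant genes held 24.2% of counts, 32.5% of summed FPKM, and 24.9% of counts without ribosomal protein genes. The median percentile of the dendritic cell markers went from 95.8 to 21.5, and that of the erythroid and megakaryocyte markers from 99.4 to 22.8, when every listed gene was counted instead of those with at least 50 counts; both sets rest on 2 or fewer genes at the minimum. The same change carried 5 list medians across the middle: complement from 95.8 to 46.9, chemokine ligands from 79.2 to 36.0, metalloproteinases from 65.2 to 35.2, cytokines from 52.4 to 37.0 and interferon-stimulated genes from 39.5 to 52.8. A minimum of 20 did so for metalloproteinases (41.1) and cytokines (41.4), and ranks by count for MHC class II (48.6), cytokines (43.3), chemokine receptors (53.2) and neutrophil markers (35.7). By count instead of FPKM, 1 of 28 pairs turned, Il4ra over Il2rg from 0.533 to 1.33; 18 moved beyond their counting interval in the same direction, among them Pparg over Ppard from 4.39 to 2.56, and 9 stayed within it. The medians for alternative activation, receptor signalling, cholesterol synthesis, SREBP control, lysosomal hydrolases and macrophage markers stayed on their side of the all-gene median and within their intervals with minimums of 20 and 100 counts, with every listed gene, by count, and without ribosomal and unnamed genes. The largest move of these was in cholesterol synthesis, from percentile 27.2 to 48.9 with every listed gene ranked, because genes with few counts then enter the ranks. Depth limits values near the minimum, where 50 counts carry the widest relative interval of the ranked genes. No paired analysis was possible because each treatment has 1 library and nothing was tested.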

Other observations

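The implied transcript length, counts divided by FPKM and library size, set some ranks apart from the counts. Rps15a had 4518 counts but 43.1 FPKM, an implied effective length of 5.19 kb, against 0.979 kb for Rps2, and Mrpl17 had 643 counts but 4.69 FPKM at 6.79 kb. Rps6 had 369 counts and 13.2 FPKM at 1.38 kb, against a median of 508 FPKM over 79 ribosomal protein genes. Lrp1 and Ahnak, with implied lengths of 15.1 and 16.5 kb, stood at ranks 17 and 25 by count and at ranks 405 and 486 by FPKM.

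Of genes not tied to macrophages, Olfr1033, an olfactory receptor gene by name, had 2430 counts and 46.1 FPKM, while 46 of the 49 listed olfactory receptor genes were under 50 counts. Vmn1r58, a vomeronasal receptor gene by name, had 351 counts, and 23 of 24 such genes were under the minimum. Whether reads of neighbouring genes fall on them was not tested. Among solute carriers, 182 of 314 listed genes reached the minimum, led by the peptide transporter Slc15a3 at 293 FPKM. Median FPKM was 23.2 over 78 mitochondrial ribosomal protein genes, 62.4 over 38 of 39 proteasome genes, 11.9 over 28 of 43 ABC transporters and 3.83 over 274 of 349 zinc finger genes named Zfp. It was 23.5 over 14 of 27 C-type lectin genes. Of 49 protocadherin genes 2 reached the minimum, and of 12 keratin genes 1. Of 38 interleukin receptor genes 22 reached it; Il10rb had 178 FPKM and Il7r 87.5 FPKM from 5702 counts.

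The labels used here give no sex for the mice. Of 13 rows on the Y chromosome, 11 were under 50 counts, and without the pseudogene Gapdh-ps15 they summed to 188 counts. Ddx3y and Kdm5d, which are active throughout the body in males, had 1 count each, Uty 21 and Eif2s3y 38. These rows were chosen after the values were seen.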
